A study of Caenorhabditis elegans with 4 samples.

Results

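The genes described here are the cuticlins and related proteins of the worm's outer matrix in the nematode *Caenorhabditis elegans*. They were picked by name: *cut* and *cutl* (cuticlin-like) genes with a number, together with *noah-1*, *noah-2*, *dyf-7* and *let-653*. The choice of these names was made with earlier results of these data known. This gave 39 genes of the 46096 listed, 6 *cut*, 29 *cutl* and 4 of other names, and the annotation classes all 39 as protein-coding, out of 19519 protein-coding genes in all. Their mRNA was measured in the *prg-1* mutant, strain wm161, which lacks normal function of a Piwi-family Argonaute protein. Poly(A) RNA came from whole worms grown at 20°C on OP50 bacteria, with 1 library per larval stage (L1, L2, L3 and L4). All 4 libraries carry the mutation and no wild-type library was analysed, so every comparison is between stages within the mutant.

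The zona pellucida (ZP) domain is a polymerization module first known from the coat of the vertebrate egg. In *C. elegans*, proteins with this domain are secreted or held at the apical surface of epithelia, where they build filaments of the precuticle (the temporary matrix that is laid down before each new cuticle), of the lining of tubes and of the alae (ridges that run along the side of the body over the seam cells). The cuticle is made anew around each larval molt, and transcripts of many of its components come and go once in each molting cycle. The labels do not give the hour within a stage at which worms were collected, so that larval stage and position in the molting cycle cannot be told apart.

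Levels are FPKM (the number of sequenced fragments divided by transcript length and by all fragments mapped in the library), which allow genes of different length to be compared. Each value came with a 95% interval from the program Cufflinks. The interval covers estimation within 1 library and not the spread between worms or cultures. With 1 library per stage no test was possible and no p-value is given. Adjacent stages were instead compared by a rule of size. A gene met the rule when the log2 difference of FPKM, with a pseudocount of 1 added to both values, was at least 1 in size, at least 1 of the stages reached 1 FPKM, and the 2 intervals did not overlap. This scale understates differences of genes at low levels.

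The libraries were close in depth, at 1, 1.01, 1.04 and 1.05 times the L1 library for L1, L2, L3 and L4, as recovered from the FPKM that 1 read is worth. Cufflinks marked 18 to 41 genes per library as failed and 520 in each library as having too little data, and none of the 39 genes was among them. In 2191 to 2325 genes per library the FPKM lay outside its own interval, and among the genes described here this held for *cut-2* at all 4 stages and for *cut-1* at L4. *prg-1* itself stood at 11.02, 11.68, 12.96 and 23.62 FPKM at L1, L2, L3 and L4. These values count any part of the gene and do not show whether the mutant transcript is intact. The vitellogenin genes, which encode yolk proteins of the adult intestine, summed to 14.7, 1.85, 1.14 and 261.3 FPKM over 6 genes at L1, L2, L3 and L4. The major sperm protein genes, active in the sperm-forming germline, summed to 368.0, 20.6, 7.85 and 164.7 FPKM over 35 genes. The L1 library therefore held more of both groups than the L2 and L3 libraries.

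The 39 genes covered a range from not detected to among the most abundant messages of the worm. At an FPKM of at least 1, 22, 27, 23 and 27 genes were detected in the order L1 to L4. Of the 39, 18 reached that level at all 4 stages, 32 at 1 stage or more, and 7 at none. The median gene stood at 1.44, 2.07, 1.29 and 1.83 FPKM at L1, L2, L3 and L4. The sum over the 39 genes was 631.9, 1783, 1217 and 1744 FPKM, of which *noah-1*, *noah-2* and *cut-2* alone held 72.0%, 88.6%, 87.2% and 81.3%. The summed levels thus say little about the other genes. The 29 *cutl* genes together summed to 93.3, 141.3, 90.4 and 100.6 FPKM, highest at L2. In whole worms, fewer cells of a type and less RNA per cell cannot be told apart.

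**Figure D1:**
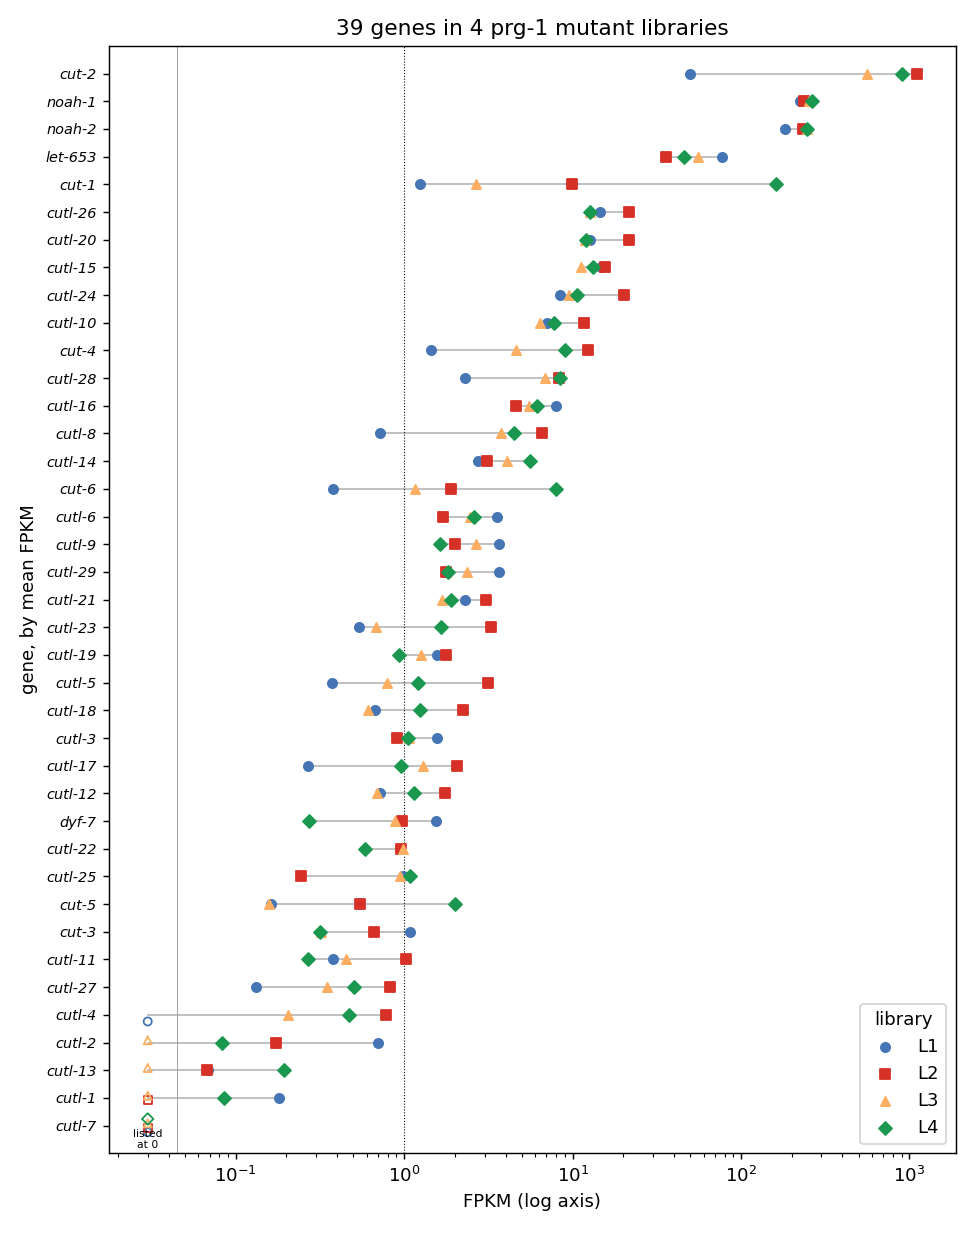
FPKM (log axis) of each of the 39 genes, ordered by mean FPKM, in the L1, L2, L3 and L4 libraries of the *prg-1* mutant. Each symbol is 1 library, open symbols at the left edge are values listed at 0, and the dotted line marks 1 FPKM. *noah-1* and *noah-2* show 4 nearly equal values above 100 FPKM, whereas *cut-1* and *cut-2* spread widely.

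More genes stood highest at L2 than at any other stage. Of the 39 genes, 18 were highest at L2, 10 at L1, 8 at L4 and 2 at L3, and *cutl-7* was listed at 0 throughout. The interval at the highest stage lay above all 3 others in 1 gene at L1 (*let-653*), in 6 genes at L2 (*cut-2*, *cutl-5*, *cutl-20*, *cutl-23*, *cutl-24* and *cutl-26*), in none at L3 and in 3 genes at L4 (*cut-1*, *cut-5* and *cut-6*). Neither the highest stage nor its interval was counted over all protein-coding genes. These counts therefore do not show that the 39 genes differ from other genes. The rule of size was met by 13 genes between at least 1 pair of adjacent stages, and the other 26 met it at no step. The 26 include the 7 genes that reached 1 FPKM at no stage and so were never tested. How many of all protein-coding genes met the rule at any step was not counted, so these numbers have no background beside them.

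*noah-1* and *noah-2* encode large ZP proteins of the epidermal apical matrix, which take part in attaching the epidermis to its matrix in the embryo and in molting. *noah-1* (chromosome I, 5874433 to 5878954, minus strand, 1052 amino acids by its coding length) stood at 223.4, 236.6, 253.4 and 263.7 FPKM at L1, L2, L3 and L4. *noah-2* (chromosome IV, 14091254 to 14096624, plus strand, 741 amino acids) stood at 182.2, 232.5, 248.1 and 246.3 FPKM. Both were lowest at L1, and neither met the rule at any step. The highest stage exceeded the lowest 1.18-fold for *noah-1* and 1.36-fold for *noah-2*, so these were the steadiest of the 39 genes by this measure. *cutl-15* was close, at 1.38-fold. Intervals were still apart in 4 pairs of stages for *noah-1* and in 3 for *noah-2*.

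The pair also stayed close to each other. The ratio of *noah-2* to *noah-1* was 0.815, 0.983, 0.979 and 0.934 in the order L1 to L4. By FPKM, *noah-1* ranked 455 to 492 and *noah-2* ranked 476 to 601 among the 19474 to 19497 protein-coding genes ranked per library. The span of *noah-2* holds 16 listed loci of 21U-RNAs, the small RNAs that PRG-1 binds, and all 16 were listed at 0 in these poly(A) libraries. *cutl-1* was the only other of the 39 genes with such a locus in its span.

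*let-653* encodes a ZP protein that lines narrow epithelial tubes such as the excretory duct and the vulva. The gene (chromosome IV, 11885530 to 11891080, plus strand, 812 amino acids) stood at 77.5 FPKM at L1 (interval 73.4 to 81.9), 35.9 at L2 (33.2 to 38.6), 55.4 at L3 (52.2 to 58.9) and 45.7 at L4 (42.6 to 48.9). Its intervals were apart in 6 of 6 pairs of stages. At L2 it was lower than at L1 by the rule, with a log2 difference of -1.09, and it was the only one of the 39 genes to be lower at that step. The difference lies near the limit of the rule, and after rescaling the libraries by the median ratio of their genes it was -0.98 and no longer met it. Its neighbour *cutl-27*, 2123 bases away on the same strand, was lowest at L1 and highest at L2, with 0.132, 0.822, 0.350 and 0.502 FPKM in the order L1 to L4, or about 4.3, 26.9, 11.8 and 17.2 reads.

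*dyf-7* encodes a ZP protein that anchors the dendrite tips of sensory neurons while the dendrites extend in the embryo. It stood at 1.54, 0.967, 0.882 and 0.272 FPKM at L1, L2, L3 and L4, which corresponds to about 30.5, 19.2, 18.1 and 5.7 reads. No adjacent step met the rule. Over the whole series the L4 library lay lower than the L1 library with a log2 difference of -1.001 and intervals that were apart (0.0481 to 0.481 FPKM at L4, against 0.962 to 2.13 at L1).

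**Figure D2:**
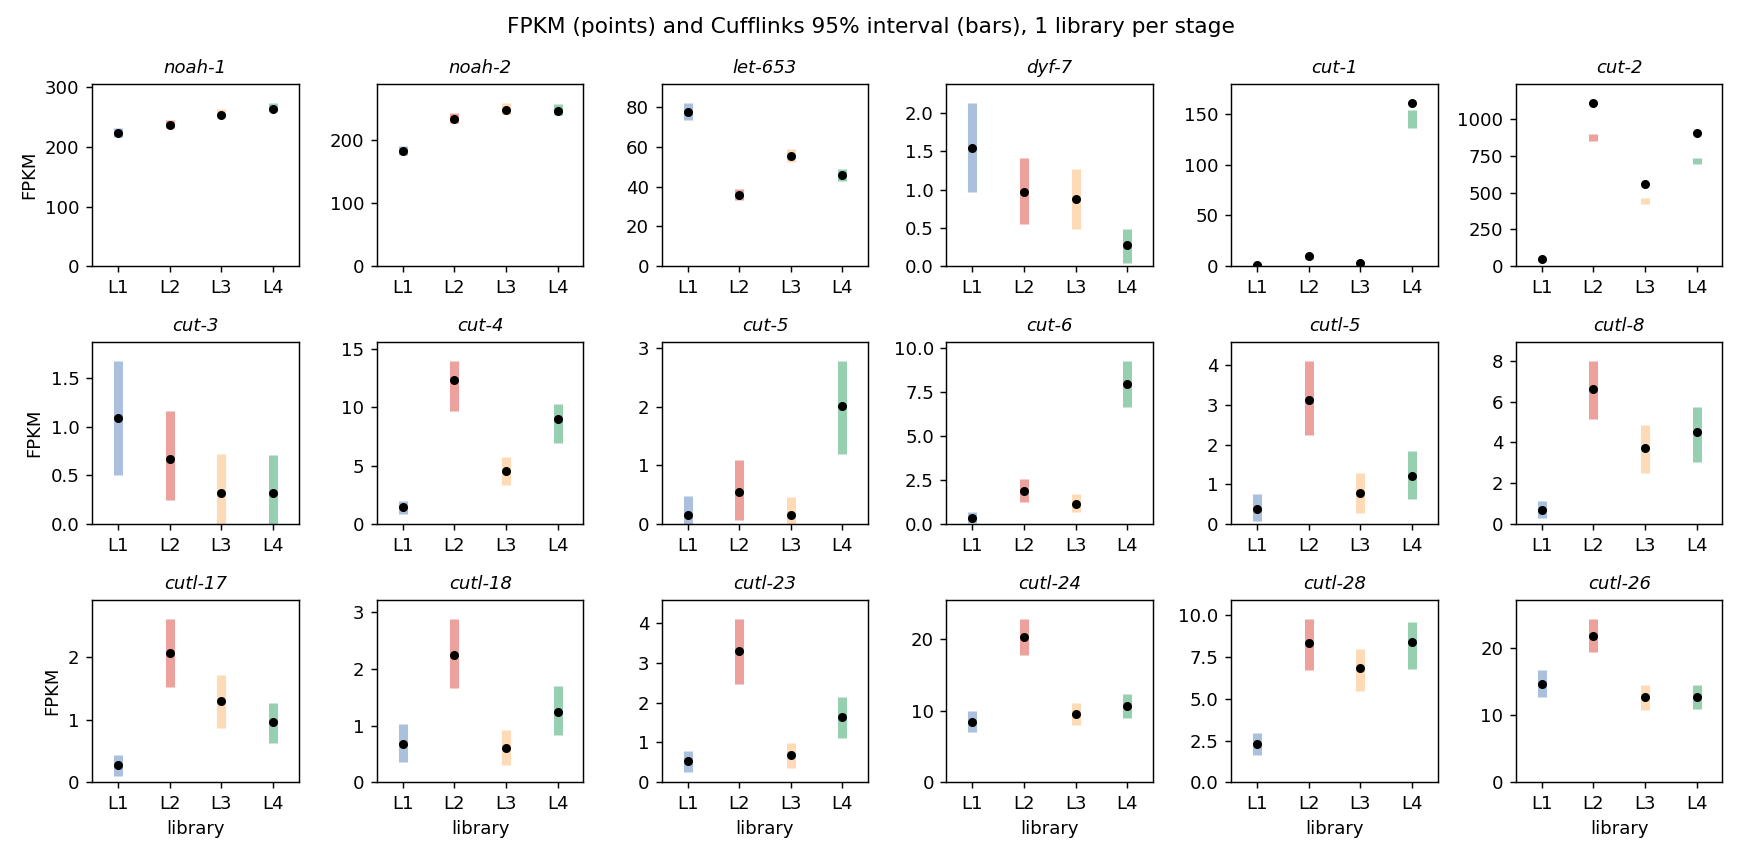
FPKM of 18 genes at L1, L2, L3 and L4, each panel with its own linear axis from 0. Points are the FPKM of 1 library and bars the Cufflinks 95% interval, and the points of *cut-2* and of *cut-1* at L4 lie above their bars. Most *cut* and *cutl* genes shown are low at L1 and high at L2, *cut-1*, *cut-5* and *cut-6* are highest at L4, and *let-653* is highest at L1.

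*cut-2* was the most abundant of the 39 genes on average. It encodes a component of the insoluble residue of the cuticle, which is cross-linked through tyrosines, and unlike the others it is not known to carry a ZP domain, so it belongs here by its name only. The gene (chromosome V, 13415062 to 13416121, plus strand, 215 amino acids) stood at 49.6, 1110.3, 560.4 and 908.1 FPKM at L1, L2, L3 and L4. At L2 it was 22.4-fold higher than at L1, or at least 18.3-fold by the nearest bounds of the intervals, and the log2 difference of 4.46 ranked 30 among 13113 protein-coding genes tested. At L3 its log2 difference from L2 was -0.99, just short of the rule, and at L4 its difference from L3 was 0.70. At L3 it was still 11.3-fold higher than at L1 and at L4 18.3-fold higher, or at least 9.16-fold and 14.9-fold by the nearest bounds.

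*cut-1* encodes a ZP cuticlin found in the alae of the dauer larva, the stress-resistant stage that worms can enter in place of the ordinary L3. The gene (chromosome II, 11269124 to 11271599, plus strand, 424 amino acids) stood at 1.24, 9.98, 2.66 and 160.4 FPKM in the order L1 to L4. It met the rule at all 3 steps, the only one of the 39 genes to do so. The log2 difference was 2.30 at L2 over L1, -1.58 at L3 over L2 and 5.46 at L4 over L3. At L4 it was 60.2-fold higher than at L3, or at least 38.3-fold by the nearest bounds (135.7 to 153.9 FPKM at L4, against 1.68 to 3.55 at L3), which ranked 7 among 12976 protein-coding genes tested. Its rank among protein-coding genes by level was 701 at L4, against 10388 at L3. Short non-coding loci overlap *cut-1*, and C47G2.15, of 147 bases inside the span, was listed at 19.8, 108.0, 38.1 and 928.6 FPKM at L1, L2, L3 and L4. C47G2.21, of 150 bases across the start of the span, was listed at 18.3, 72.7, 17.6 and 1562 FPKM, and its value at L4 lay far above its own interval of 91.7 to 130.8 FPKM. Both loci were highest at L4, as *cut-1* was. How Cufflinks divided reads between them is not given in the sources used here.

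*cut-6* and *cut-5* are further cuticlins with roles in alae or body shape of the dauer larva, and *cut-5* also acts in the alae of the L1. *cut-6* (chromosome III, 10911460 to 10916665, plus strand, 572 amino acids) stood at 0.379, 1.90, 1.16 and 7.95 FPKM at L1, L2, L3 and L4. It was higher at L2 than at L1 with a log2 difference of 1.07, which was 0.97 and short of the rule when each library was rescaled to the same FPKM sum, and higher at L4 than at L3 with 2.05. *cut-5* (chromosome X, 10333861 to 10338200, minus strand, 395 amino acids) stood at 0.163, 0.548, 0.157 and 2.02 FPKM. It was higher at L4 than at L3 with a log2 difference of 1.38. The gene R07E3.2 lies within *cut-5* and was listed at 1.55, 28.1, 6.15 and 16.5 FPKM. It was highest at L2 and, like *cut-5*, higher at L4 than at L3. Its share in the reads of *cut-5* was not tested. *cut-1*, *cut-6* and *cut-5* were the 3 genes that met the rule at L4 over L3, and in each the L4 interval lay above those of L1, L2 and L3.

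*cut-4* and *cut-3* differed from these. *cut-4* (chromosome II, 507 amino acids) stood at 1.44, 12.3, 4.59 and 8.99 FPKM at L1, L2, L3 and L4, about 28.8, 248.8, 95.3 and 189.6 reads. It met the rule as higher at L2 than L1 with a log2 difference of 2.45 and as lower at L3 than L2 with -1.26, whereas the difference of 0.84 at L4 over L3 did not reach the limit, with intervals that were apart. Its order of stages, L2, L4, L3 and L1 from high to low, was that of *cut-2*. *cut-3*, which acts in the alae of the L1, was highest at L1 and stood at 1.08, 0.664, 0.322 and 0.317 FPKM, or 13, 8, 4 and 4 reads. Its intervals overlapped in all pairs of stages, so that no stage could be told from another at this depth.

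As a group, 4 of 5 *cut* genes tested met the rule as higher at L2 than L1, where 7.0% of all protein-coding genes tested did. As lower at L3 than L2, 2 of 4 met it, against 3.29% of all, and as higher at L4 than L3, 3 of 5 met it, against 3.84% of all. Most *cutl* genes are known from their sequence only. Of 21 tested at each step, 6 were higher at L2 than L1, 4 were lower at L3 than L2, and none met the rule at L4 over L3, beside the same 7.0%, 3.29% and 3.84% of all genes.

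The most abundant *cutl* genes were steady or highest at L2. *cutl-26* stood at 14.6, 21.7, 12.7 and 12.7 FPKM at L1, L2, L3 and L4, *cutl-20* at 12.61, 21.65, 11.80 and 12.06 FPKM, and *cutl-15* at 14.7, 15.5, 11.2 and 13.3 FPKM. None of the 3 met the rule, although the L2 interval of *cutl-26* and of *cutl-20* lay above the other 3 intervals. *cutl-24* was close to these in level, at 8.45, 20.3, 9.54 and 10.7 FPKM. It met the rule as higher at L2 than L1 with a log2 difference of 1.17 and as lower at L3 than L2 with -1.01, a difference at the limit that rescaling each library to the same FPKM sum took to -0.996. *cutl-10* stood at 7.07, 11.7, 6.40 and 7.78 FPKM and met the rule at no step.

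A set of less abundant *cutl* genes was lowest at L1 and higher at L2. *cutl-8* stood at 0.718, 6.62, 3.73 and 4.50 FPKM at L1, L2, L3 and L4, with a log2 difference of 2.15 at L2 over L1, or at least 4.50-fold by the nearest bounds. *cutl-28* stood at 2.31, 8.34, 6.84 and 8.41 FPKM, with a log2 difference of 1.496, and its values after L1 overlapped in their intervals. In both, the intervals at L3 and L4 also lay above that at L1. *cutl-17* stood at 0.268, 2.07, 1.29 and 0.955 FPKM, or about 8.6, 66.7, 43.1 and 32.3 reads, with a log2 difference of 1.27. The gene *cpin-1* lies within *cutl-17* and was listed at 11.01, 11.63, 17.85 and 16.22 FPKM, highest at L3. Its share in the reads of *cutl-17* was not tested.

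In 3 further *cutl* genes the L2 level stood out from both neighbours. *cutl-5* stood at 0.375, 3.13, 0.795 and 1.21 FPKM at L1, L2, L3 and L4, which are 5, 42, 11 and 17 reads, with a log2 difference of 1.59 at L2 over L1 and -1.20 at L3 over L2. *cutl-23* stood at 0.537, 3.29, 0.676 and 1.65 FPKM, about 14.2, 87.5, 18.6 and 46 reads, with differences of 1.48 and -1.35. *cutl-18* stood at 0.673, 2.24, 0.610 and 1.24 FPKM, or 17, 57, 16 and 33 reads. It met the rule as lower at L3 than L2 with -1.01, which was -0.92 after the same rescaling, and at L2 over L1 it lay just outside with 0.96. A small nucleolar RNA locus within *cutl-18* was listed at 198.1 FPKM at L2, with an interval of 0 to 990.3, and at 0 in the other libraries. The protein-coding gene T03F7.7 overlaps *cutl-18* by 54 bases. It was listed at 13.1, 38.6, 21.6 and 23.4 FPKM at L1, L2, L3 and L4, highest at L2 as *cutl-18* was. The share of either in the reads of *cutl-18* was not tested.

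Several *cutl* genes were highest at L1, and none of them met the rule. *cutl-16* stood at 7.95, 4.59, 5.54 and 6.15 FPKM at L1, L2, L3 and L4, with L2 and L1 intervals that were apart. *cutl-6* stood at 3.57, 1.70, 2.47 and 2.58 FPKM, *cutl-9* at 3.65, 2.02, 2.69 and 1.64 FPKM, and *cutl-29* at 3.64, 1.77, 2.36 and 1.83 FPKM. In *cutl-6*, *cutl-9* and *cutl-29* the L2 and L1 intervals overlapped. That the L2 value lies below the L1 value in all 4 follows from their being named as highest at L1. *cutl-14* was the only *cutl* gene above 1 FPKM throughout with a higher value at each later stage, at 2.74, 3.12, 4.10 and 5.58 FPKM, and its intervals overlapped in all pairs of stages.

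The remaining *cutl* genes stood near 1 FPKM and met the rule at no step. *cutl-12* was highest at L2, at 0.715, 1.75, 0.689 and 1.15 FPKM at L1, L2, L3 and L4, and its L2 interval lay apart from those of L1 and L3. *cutl-25* was lowest at L2, at 0.984, 0.245, 0.948 and 1.09 FPKM, with overlapping intervals between adjacent stages. *cutl-21* stood at 2.29, 3.07, 1.67 and 1.91 FPKM, and only its L3 and L2 intervals were apart. *cutl-3*, *cutl-11*, *cutl-19* and *cutl-22* had intervals that overlapped in all pairs of stages, with values from 0.268 FPKM (*cutl-11* at L4) to 1.78 FPKM (*cutl-19* at L2).

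At the low end, depth set the limit. *cutl-1* had 2, 0, 0 and 1 reads at L1, L2, L3 and L4, and a count of 0 reads allows up to 3 reads, or 0.268 FPKM at L2 and 0.260 FPKM at L3. *cutl-2* was listed at 0.701, 0.174, 0 and 0.0833 FPKM in the order L1 to L4, with the 0 at L3 allowing up to 0.211 FPKM, or about 9.6, 2.4, 0 and 1.2 reads. *cutl-4* was listed at 0 at L1 (which allows up to 0.184) and at 0.778, 0.205 and 0.473 FPKM at L2, L3 and L4. *cutl-13* stood at 0.0682, 0.0678, 0 and 0.194 FPKM, and *cutl-7* was listed at 0 in all 4 libraries. These limits cover counting error only. The L2 interval of *cutl-4*, 0.365 to 1.16 FPKM, lay above the limit at L1, and the L1 interval of *cutl-2*, 0.292 to 1.10 FPKM, lay above the limit at L3, whereas for *cutl-1*, *cutl-7* and *cutl-13* no difference between stages was detectable at this depth.

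Set against all protein-coding genes, the step with the most differences was L2 over L1. Of 30 genes tested, with 9 below the filter on low values, 10 were higher at L2 than at L1 (33.3%), where the same rule called 7.0% of all 13113 protein-coding genes tested, and 1 was lower (3.33%), against 2.59% of all. Over all 39 genes the median log2 difference was 0.35, beside -0.03 for all protein-coding genes measured, and 25 differences were positive, 13 negative and 1 was 0. The genes higher at L2 were *cut-1*, *cut-2*, *cut-4*, *cut-6*, *cutl-5*, *cutl-8*, *cutl-17*, *cutl-23*, *cutl-24* and *cutl-28*.

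At L3 over L2 the differences were mostly negative. Of 28 genes tested, none was higher, where the rule called 1.74% of all 12818 protein-coding genes tested, and 6 were lower (21.4%), against 3.29% of all. The median log2 difference was -0.42, beside 0 for all protein-coding genes, with 11 positive, 26 negative and 2 at 0. The genes lower at L3 were *cut-1*, *cut-4*, *cutl-5*, *cutl-18*, *cutl-23* and *cutl-24*, and 5 of these 6 had been higher at L2 than at L1. Both steps contain the L2 library, so the counts are not independent of each other, and a high value in that library alone would enter both.

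At L4 over L3, 3 of 29 genes tested were higher (10.3%), where the rule called 3.84% of all 12976 protein-coding genes tested, and none was lower, against 0.532% of all. The median log2 difference was 0.13, beside 0 for all protein-coding genes, with 27 positive, 11 negative and 1 at 0. *cut-1* and *cut-6* had been higher at L2 than at L1 as well. Without regard to size, intervals were apart in 19 genes at L2 over L1, in 17 at L3 over L2 and in 8 at L4 over L3. The same count was not made over all protein-coding genes, so it cannot be said whether these numbers are unusual.

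**Figure D3:**
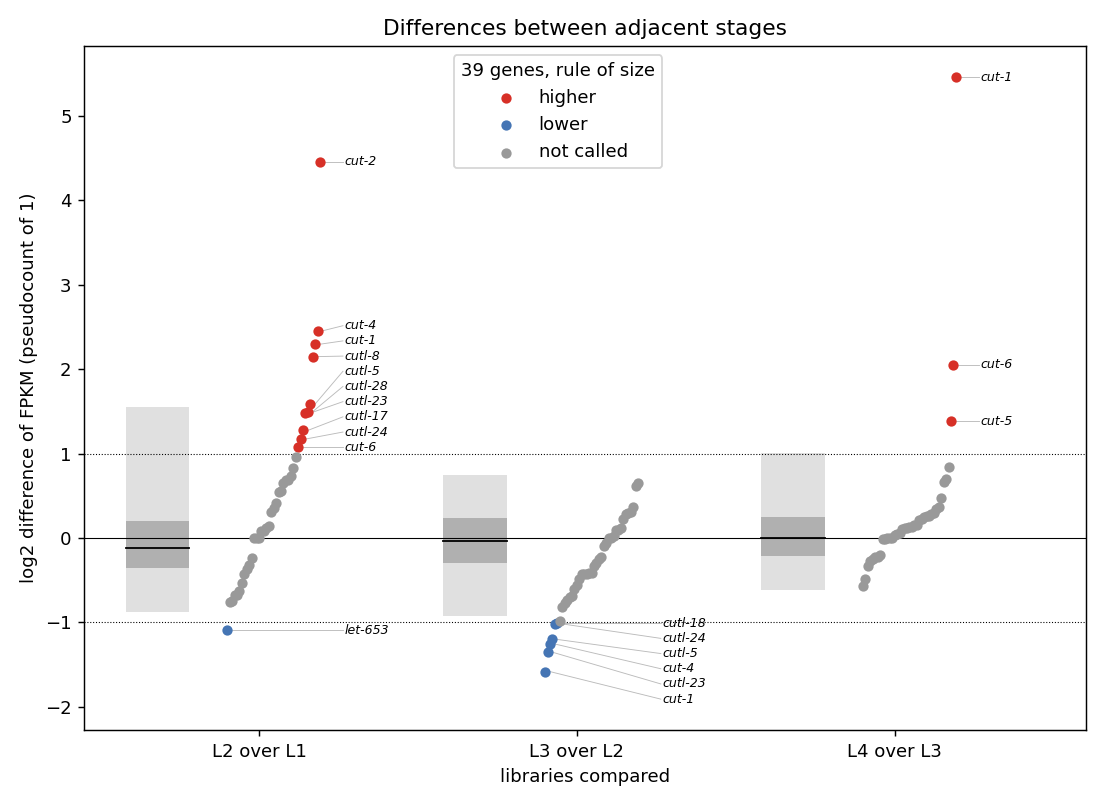
Log2 difference of FPKM (pseudocount of 1) of the 39 genes between adjacent stages, each point 1 gene. Red genes were higher and blue genes lower in the later stage by the rule of size, grey genes met it in neither direction, and dotted lines mark a difference of 1 in size. The bars at the left of each step give the 5th to 95th (light) and 25th to 75th (dark) percentile and the median (line) of all protein-coding genes tested.

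Other components of the outer matrix were read from lists of genes of known role. For all lists below, the shares of all protein-coding genes tested are the background. The rule called 7.0% higher and 2.59% lower at L2 over L1. At L3 over L2 it called 1.74% higher and 3.29% lower, and at L4 over L3 3.84% higher and 0.532% lower. In 9 other genes of the precuticle matrix, none was higher and *fbn-1*, a fibrillin-like protein, was lower at L2 than L1, and *dex-1*, a secreted protein with nidogen domains, was higher at L4 than L3. The median log2 differences of this list were 0.37, 0.15 and 0.19 at L2 over L1, L3 over L2 and L4 over L3. Its most abundant members were *lpr-3*, a lipocalin, at 175.5, 230.3, 257.1 and 242.6 FPKM at L1, L2, L3 and L4, *sym-1*, a leucine-rich repeat protein, at 266.5, 177.5, 225.8 and 216.2 FPKM, and *mlt-11*, a protease inhibitor-like protein, at 130.5, 169.4, 140.8 and 162.3 FPKM. The range of *lpr-3* over the stages was near that of *noah-2*. *fbn-1* stood at 43.3, 10.4, 20.0 and 23.7 FPKM, and like *let-653* it was highest at L1 and lowest at L2.

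Of 6 furrow collagens, which form the circumferential furrows of the cuticle, *dpy-3* and *dpy-8* were higher at L2 than L1 and none met the rule afterwards. *dpy-8* stood at 67.8, 193.9, 160.3 and 168.6 FPKM at L1, L2, L3 and L4, and *dpy-3* at 109.4, 239.5, 206.4 and 206.1 FPKM. The list had median log2 differences of 0.69, -0.13 and -0.02. Like *cut-2*, all were lowest at L1, and all except *dpy-9*, which was highest at L3, were highest at L2.

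Of 11 genes of molting, 10 were tested, and 5 were higher at L2 than L1 and 1 was lower. The higher genes were *nas-36* and *nas-37*, secreted proteases needed to shed the old cuticle, *mlt-9* and *mlt-10*, and the period homologue *lin-42*. *mlt-10* stood at 13.5, 137.9, 90.2 and 143.5 FPKM at L1, L2, L3 and L4, lowest at L1 and second lowest at L3, as were *cut-2* and *cut-4*. The lower gene was *nhr-23*, a nuclear receptor that drives molting, at 54.75, 24.98, 39.39 and 32.38 FPKM, which is the order of stages seen in *let-653*. None met the rule at the other steps, and the median log2 differences were 0.97, -0.35 and 0.13. *mlt-8* had a failed estimate at L2 and L3.

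Of 8 genes for cross-linking and processing of cuticle proteins, *doxa-1*, a maturation factor for dual oxidases, was higher at L2 than L1, and *mlt-7*, a peroxidase, was lower at L3 than L2. *mlt-7* stood at 46.4, 93.6, 43.5 and 69.1 FPKM at L1, L2, L3 and L4, and *pdi-2*, a protein disulfide isomerase that is also part of the collagen prolyl hydroxylase and the most abundant of the list, at 1912, 1358, 1610.4 and 1709 FPKM. The median log2 differences were 0.33, -0.27 and 0.35. Of 7 regulators of epidermal and seam cell fate, the cells that make the cuticle and the alae, none met the rule at the first 2 steps and *ceh-16* was lower at L4 than L3, at 2.57 FPKM, against 7.34 FPKM at L3. Their median log2 differences were -0.18, -0.27 and -0.38, and their summed level was 236.0, 195.3, 185.3 and 147.0 FPKM at L1, L2, L3 and L4.

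**Figure D4:**
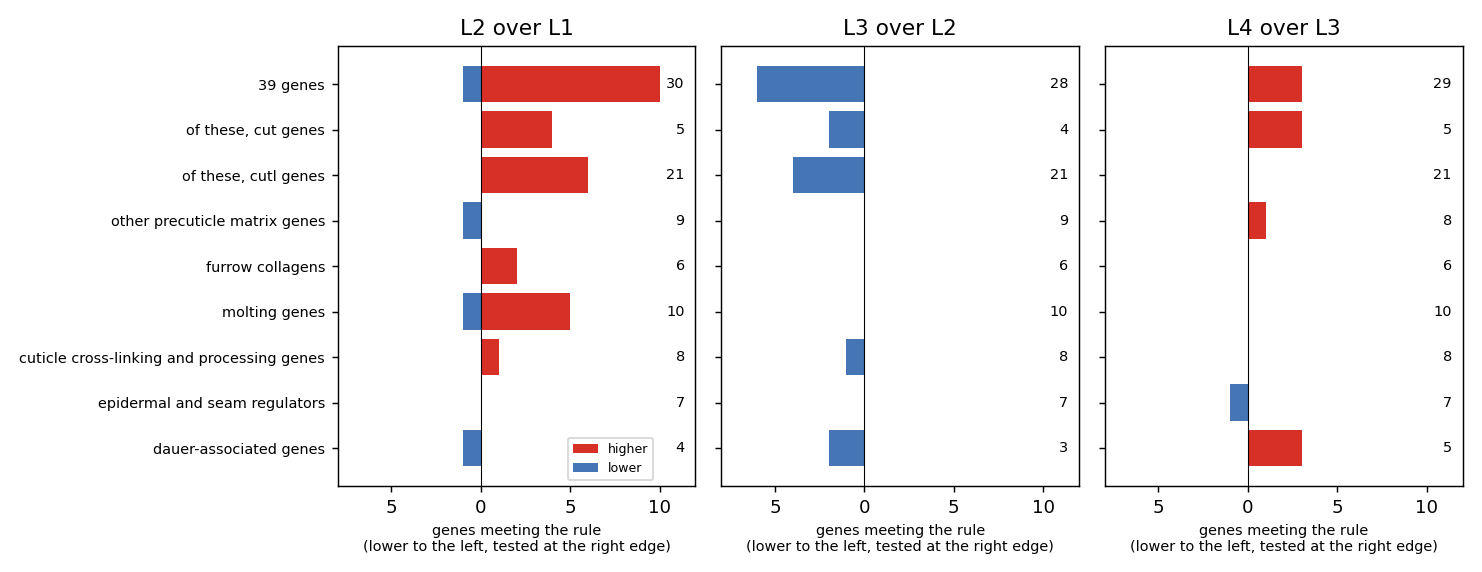
Number of genes that met the rule of size at each step in the 39 genes, in their *cut* and *cutl* subsets and in 6 lists of other genes of the outer matrix, the epidermis and the dauer larva. Bars to the right count genes higher and bars to the left genes lower in the later stage, and the figure at the right edge of each row is the number tested. At L4 over L3 the 3 *cut* genes and 3 of 5 dauer-associated genes make up most of the calls shown.

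Of 5 genes associated with the dauer larva, *col-2*, *col-40* and *scl-1*, a secreted protein linked to long life in *daf-2* mutants, were higher at L4 than L3. *col-2*, a dauer collagen, stood at 16.7, 11.8, 3.003 and 182.6 FPKM at L1, L2, L3 and L4, and *col-40*, another collagen, at 10.7, 11.3, 2.42 and 146.4 FPKM. Both were lower at L3 than L2 by the rule, as *cut-1* was, and their FPKM at L4 lay above its own interval, as that of *cut-1* did. *lea-1*, a late embryogenesis abundant protein, stood at 90.8, 107.2, 105.9 and 111.8 FPKM. *hsp-12.6*, a small heat shock protein, stood at 2.78, 0, 0.537 and 2.65 FPKM, lower at L2 than L1 by the rule. That call rests on an L2 interval listed as 0 to 0, against 0.491 to 3.93 FPKM at L1. No allowance of reads for a count of 0 was applied to it. The list had median log2 differences of 0.07, -0.68 and 1.88. It is short, and its genes were chosen with results of these libraries known.

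Other stage and tissue markers moved with the same libraries. At L4 over L3, 6 of 6 vitellogenin genes and 29 of 31 major sperm protein genes tested were higher, and so were 4 of 10 germline genes, which summed to 72.5, 86.1, 98.4 and 194.8 FPKM at L1, L2, L3 and L4. At L2 over L1, 31 of 32 major sperm protein genes and 2 of 3 vitellogenin genes tested were lower. All 6 vitellogenin genes were below 1 FPKM at L2 and at L3. The part of these differences in the results for the 39 genes was not tested. None of 5 neuronal, 4 muscle and 4 reference genes met the rule at any step. The median log2 differences at L2 over L1, L3 over L2 and L4 over L3 were -0.51, -0.16 and -0.31 for the neuronal genes, 0.60, 0.11 and -0.03 for the muscle genes, and -0.22, -0.29 and 0.02 for the reference genes. The neuronal gene *unc-31* was listed at 2412 FPKM at L1 with an interval of 4.14 to 11402 FPKM, which holds its values at the other stages.

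**Figure D5:**
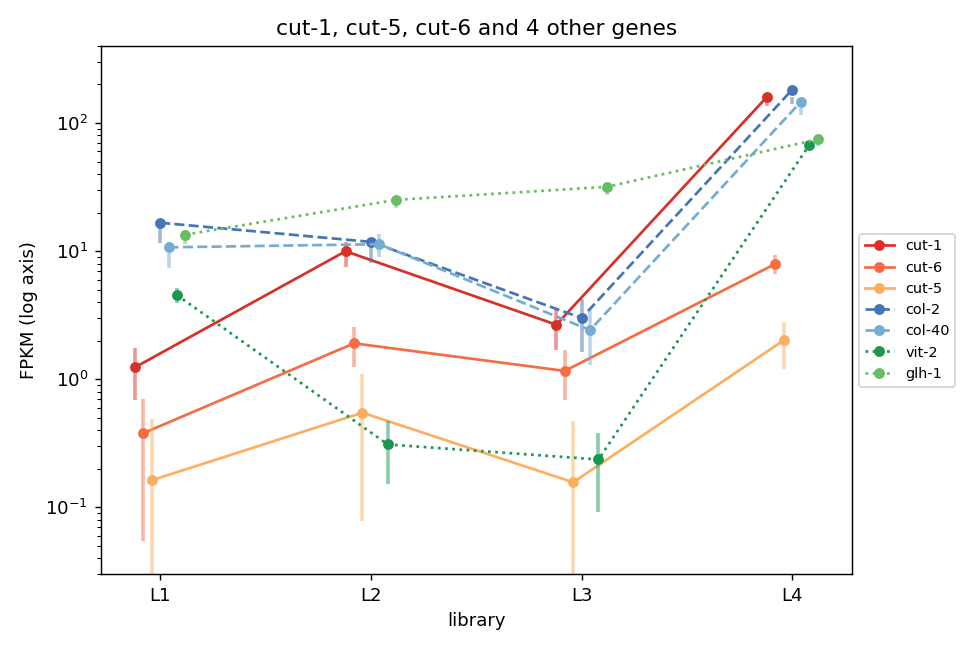
FPKM (log axis) of *cut-1*, *cut-6* and *cut-5* (solid lines), the collagens *col-2* and *col-40* (dashed) and, as stage markers, *vit-2* and *glh-1* (dotted) at L1, L2, L3 and L4. Points are 1 library each, vertical bars the Cufflinks 95% interval, and bars that reach the lower edge have a lower bound near or at 0. *cut-1*, *col-2* and *col-40* lie between 146.4 and 182.6 FPKM at L4, against 2.42 to 3.003 FPKM at L3.

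The genes share little in their position. They lie on all 6 chromosomes, with 8 on I, 9 on II, 4 on III, 7 on IV, 5 on V and 6 on X. The closest pairs are *cutl-27* and *let-653* at 2123 bases, *cut-2* and *cutl-1* at 9048 bases, and *cutl-28* and *cutl-26* at 10357 bases on opposite strands. In each pair the levels differed. *cut-2* reached 1110.3 FPKM at L2 where *cutl-1* was listed at 0, and *cutl-28* was lower at L1 than at every later stage where *cutl-26* was highest at L2. By coding length the proteins run from 215 amino acids (*cut-2*) to 1052 (*noah-1*). Another protein-coding gene overlaps 10 of the 39, mostly by under 100 bases at the ends, and besides *cut-5* and *cutl-17* only *cutl-8* shares more, 260 bases with T01G9.2, which was listed at 13.0, 14.4, 13.8 and 14.6 FPKM at L1, L2, L3 and L4.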

How the data were processed

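The 4 libraries hold poly(A) RNA of whole *prg-1* mutant worms, 1 per larval stage. The submitters' processing notes name TopHat2 (2.0.8), Cufflinks (2.1.1) and build ce10. The deposited files give, for each gene, the authors' FPKM, a lower and an upper 95% bound on the FPKM scale, and a status of the estimate. Strand use, multiply mapping reads and the gene annotation were not described in the sources used here. Only estimates with status OK were used.

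Values were compared with Python (3.11.15), numpy (2.4.6), pandas (2.3.3) and matplotlib (3.10.9). Log2 differences used a pseudocount of 1 FPKM. Medians over the 39 genes include those below the filter. Reads were recovered for 25 genes whose interval bounds (for *cutl-1*, values and bounds) were whole multiples of 1 step within 0.01 of a read, and not given otherwise. Read numbers that are not whole are FPKM divided by that step. A count of 0 was taken to allow 3 reads. Biotypes come from RefSeq, matched by sequence name for 44817 genes, and otherwise from the WBcel235 annotation. Strands and coding lengths come from the WBcel235 annotation, in which all 39 genes have the listed name and 1 has the listed span. Coordinates are therefore as listed in the files, counted from 1. The members and the 12 gene lists were chosen with earlier results of these data known. Named in full were genes of known role, those meeting the rule and the 5 most abundant, and of each list those meeting the rule and up to 3 abundant members. Neighbouring and overlapping genes and *cutl* genes outside the rule were named after their values were seen. The steps were tested on simulated data made from more abundant genes inside their own intervals, with large changes of fixed size. Genes at low levels and differences near the limit of the rule were not covered by it. The 12 alternatives include 2 chosen after seeing the data. *elt-5* was not listed under that name.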

Additional observations from a re-analysis of the deposited data

How the results depend on the processing

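No paired analysis was possible because there is a single library per stage, and for the same reason no replicate could be left out. Of the 39 genes' differences under the 9 alternatives that give a difference per gene, 950 kept their side of the rule. Another 17 no longer met it, 5 newly met it and none met it in the opposite direction. Very small differences could change sign, as for *cutl-22* at L2 over L1, from -0.004 to 0.05 with median-ratio rescaling. Genes that an alternative left untested are not in these numbers. The 10 genes higher at L2 than L1 became 4 with a pseudocount of 5 FPKM and 6 with a minimum of 5 FPKM. They became 4 at a fold of at least 4, and 4 where the nearest interval bounds had to lie 2-fold apart. The count was 12 with a pseudocount of 0.1 FPKM, 11 with median-ratio rescaling and 9 with rescaling to the same FPKM sum. The minimum of 5 FPKM also left fewer genes tested. Among all protein-coding genes it called 7.65% of 9530 higher at L2 than L1 and 3.78% of 9346 lower at L3 than L2. The 1 gene lower at L2 than L1, *let-653*, became 0 at a fold of at least 4, with median-ratio rescaling and with nearest bounds 2-fold apart. The 6 genes lower at L3 than L2 became 0 with a pseudocount of 5 FPKM, 3 with a minimum of 5 FPKM, 0 at a fold of at least 4 and 0 with nearest bounds 2-fold apart. Counting any FPKM above 0 as detected gave 37 genes at L1 and 35 at L3 in place of 22 and 23. Among all protein-coding genes, a fold of at least 4 called 458 higher and 110 lower at L2 against L1 in place of 918 and 339, 32 and 31 at L3 against L2 in place of 223 and 422, and 167 and 7 at L4 against L3 in place of 498 and 69. A pseudocount of 5 FPKM called 590 and 148, 100 and 201, and 212 and 22 at the same steps. Nearest bounds 2-fold apart called 553 and 111, 56 and 110, and 179 and 5. Without regard to intervals 345 were higher at L3 than L2 and 178 lower at L4 than L3, and a pseudocount of 0.1 FPKM called 115 lower at L4 than L3. Median-ratio rescaling shifted the log2 differences of abundant genes by 0.11 at L2 over L1, and those of genes at low levels by less because of the pseudocount. Of the losses, 13 came with a pseudocount of 5 FPKM, among them *cut-5* at L4 over L3 (0.44) and *cut-6* at L2 over L1 (0.36). At L4 over L3 *cut-5* had a log2 difference of 1.38, or 0.58 by the nearest bounds, with 2.02 FPKM at L4. It therefore also fell short of a fold of at least 4, a minimum of 5 FPKM and nearest bounds 2-fold apart. Without *cut-2*, 9 genes were higher at L2 than L1 and the median differences were 0.33, -0.38 and 0.12. The spread between cultures is unknown at each stage, and genes with fewer than 20 reads limit what can be told apart.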
